A study of Danio rerio with 12 samples.

Results

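Cytosolic ribosomal protein genes, which encode the protein subunits of the ribosomes that translate nuclear mRNA, were followed across 12 single-colour Affymetrix arrays of whole zebrafish larvae. Members were the probe sets with 1 platform gene symbol that began with rpl or rps and a digit, or with rplp and a digit. Kinases of the rps6k family, ribosomal protein-like genes (rpl22l1, rpl7l1, rps26l, rps27l) and the binding protein gene rps19bp1 were left out. The rule gave 68 genes on 72 probe sets, of 8793 named genes and 15502 probe sets in all, and the probe set with the highest mean signal stood for each gene. Of the 68 genes, 43 belonged to the large subunit (rpl and rplp) and 25 to the small subunit (rps), and all 68 passed the filter on dim probe sets.

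RNA came from wild-type larvae of a commercial supplier, collected at 96 hours post fertilisation (hpf) in pools of about 30. The labels give 4 groups of 3 arrays each: E2+TCDD (0.1 µM 17beta-estradiol with 1 nM of the dioxin TCDD), TCDD (1 nM), E2 (0.1 µM) and DMSO (0.1% solvent, in which the chemicals were dissolved). Larvae were exposed between 72 and 96 hpf, and the series asks which responses to the estrogen and to the dioxin are shared. Descriptions of the arrays combine a number with a letter: replicate 1 of every group has letter C and all other arrays have letter B, and the numbers 248, 249, 252 and 255 occur with both letters, while 357, 358, 362 and 365 occur with letter B alone. Whole larvae mix all tissues, so fewer cells of a type and less RNA per cell cannot be told apart.

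A ribosome is built from ribosomal RNA and a near-fixed set of proteins, each needed in about equal numbers, and its small subunit reads the mRNA while its large subunit joins amino acids. In vertebrates the mRNAs of ribosomal proteins start with a terminal oligopyrimidine (TOP) motif, through which the kinase mTOR and the protein LARP1 set their translation and stability together. Free large-subunit proteins of the 5S particle restrain Mdm2 in mammals and so connect ribosome assembly to p53, and zebrafish carrying mutations in single ribosomal protein genes have been widely used to study growth defects, anaemia and tumours.

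Expression of 2 marker genes went against several titles, so every array is named here as the array labelled so. The signal of cyp1a, a monooxygenase gene induced by dioxin, was 20170.0 to 23173.2 in the arrays labelled E2+TCDD 1, 2 and 3, TCDD 1, E2 2 and E2 3, and it was 263.9 to 414.7 in those labelled TCDD 2 and 3, E2 1 and DMSO 1, 2 and 3. The signal of cyp19a1b, an aromatase gene induced by estrogen, was 255.9 to 296.5 in the arrays labelled E2+TCDD 1 and 3, TCDD 3, E2 1, E2 3 and DMSO 3, against 36.1 to 70.1 in the other 6. No array was grouped by these signals. However, the fit to the 6 arrays labelled E2+TCDD or DMSO was chosen knowing that cyp1a separates them as labelled. The grouping by number was likewise chosen with earlier results known. Besides the labelled groups, arrays were compared by letter and by number, where a letter B array takes the exposure of the letter C array with its number. The series text mentions 2 batches of hybridisations, and reading the letter as their mark is an inference. Pools are described as biological replicates, but arrays that share a number may also share RNA, so p-values measure the spread between these arrays, and the number of arrays limits the precision.

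Ribosomal protein genes were among the brightest features of the arrays. Their mean signals over the 12 arrays ran from 8926.4 for the probe set of rps27.2 to 28580.8 for that of rps2, and all 68 lay at or above the 98.5th percentile of all probe sets. Another 148 probe sets had mean signals in that range and serve below as a measure of what other bright features did. Signals of different probe sets depend on their probes as well as on the mRNA, so no level is compared between genes.

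Signals of single members moved little. The SD of log2(signal + 16) over the 12 arrays had a median of 0.109 among members, against 0.196 among the 11626 probe sets tested and 0.113 among the other bright probe sets, and 63 of the 68 members were below the median of all. In 67 of 68 genes the highest array was less than 1.5 times the lowest. The smallest SD, 0.058, belonged to rps3 (Entrez gene 336550), a small-subunit protein at the channel where mRNA enters, whose signal had a lowest value of 19363, a median of 20344 and a highest of 22414. The genes rpl35a, rpl28 and rpl3 followed, each with an SD of 0.069 to 0.070, and rpl3 encodes a protein close to the catalytic centre of the large subunit. At the other end, rpl27a (Entrez gene 336726), a large-subunit protein, had an SD of 0.28 and signals from 8165 to 13806. The next 5 were rpl14 (0.224), rpl21 (0.216), rpl31 (0.204), rps9 (0.197) and rpl26 (0.185).

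**Figure D1:**
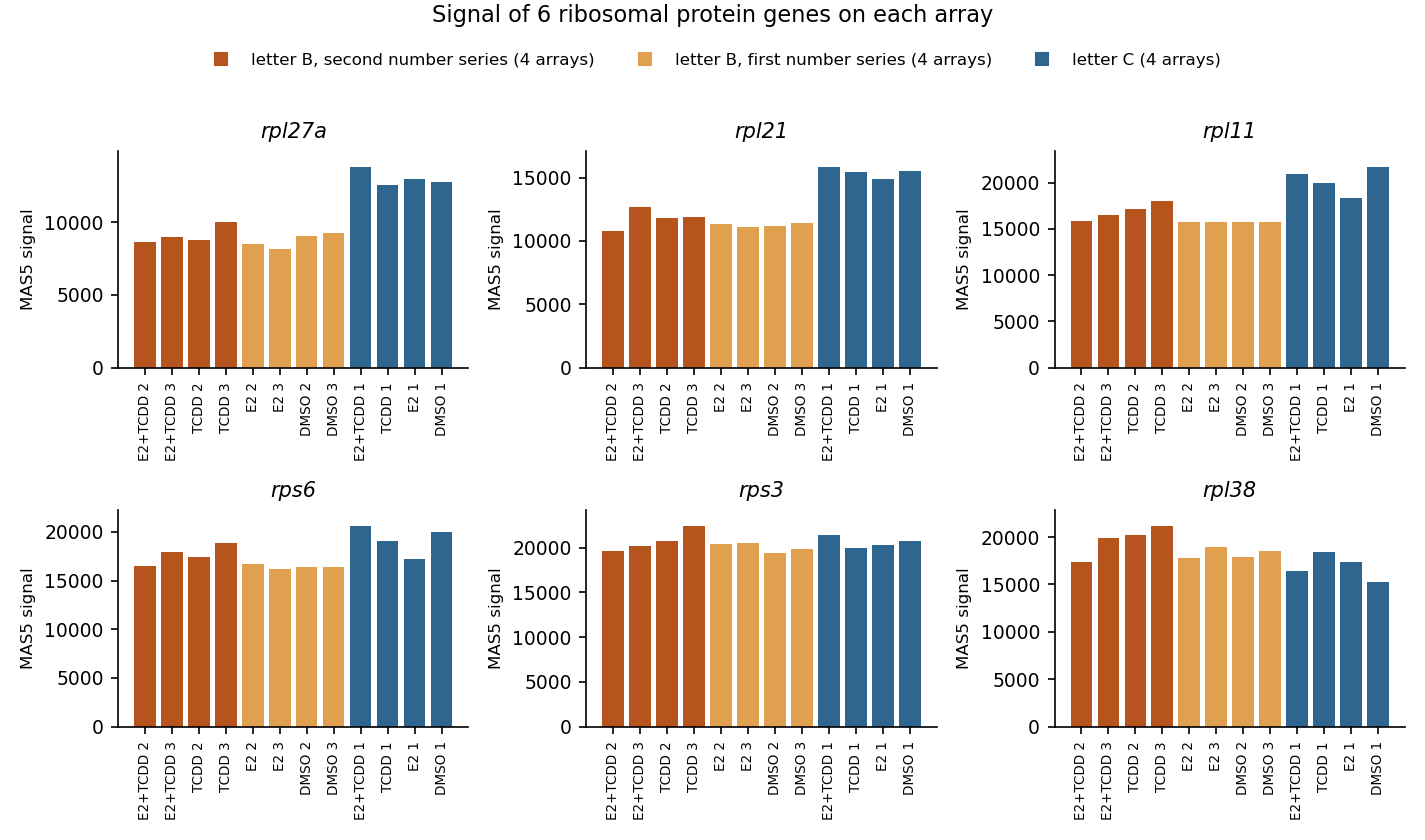
MAS5 signal (linear, starting at 0) of 6 ribosomal protein genes on each array, with letter B arrays of the second number series, letter B arrays of the first number series and letter C arrays in colour from left to right, and 1 bar per array. The bars of rpl27a, rpl21, rpl11 and rps6 are lower in every letter B array of the first number series than in every letter C array, those of rps3 stay between 19363 and 22414, and those of rpl38 overlap between the letters.

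The 6 genes plotted by array show how differently members behaved between the letters. In rpl27a, rpl14 and rpl21 the letters held 92.4%, 90.1% and 92.1% of the sum of squares of the 12 log2 values, whereas in rps3 and rpl35a they held 1.9% and 2.3%. The median of this share was 41.8% per member, against 34.4% per probe set among the other bright ones and 27.8% among all tested. With all sums of squares pooled it was 60.2% for members, 10.7% for the other bright probe sets and 37.5% for all tested. The low share of the other bright ones rests on cyp1a, which held 77.9% of their sum of squares, and without it the pooled share was 48.2%.

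Members moved together from array to array. The median deviation of the 68 genes from their own 12-array means (log2 scale) was -0.112 and -0.022 in the arrays labelled E2+TCDD 2 and 3, 0.002 and 0.067 in TCDD 2 and 3, -0.09 and -0.056 in E2 2 and 3, and -0.09 and -0.07 in DMSO 2 and 3, the 8 letter B arrays. In letter C it was 0.186 in the array labelled E2+TCDD 1, 0.109 in TCDD 1, -0.033 in E2 1 and 0.138 in DMSO 1. The array labelled E2 1 thus lay apart from the other letter C arrays and among the letter B values. Large and small subunits moved alike. Their medians lay farthest apart in the array labelled DMSO 1, at 0.121 for the large and 0.153 for the small subunit.

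**Figure D2:**
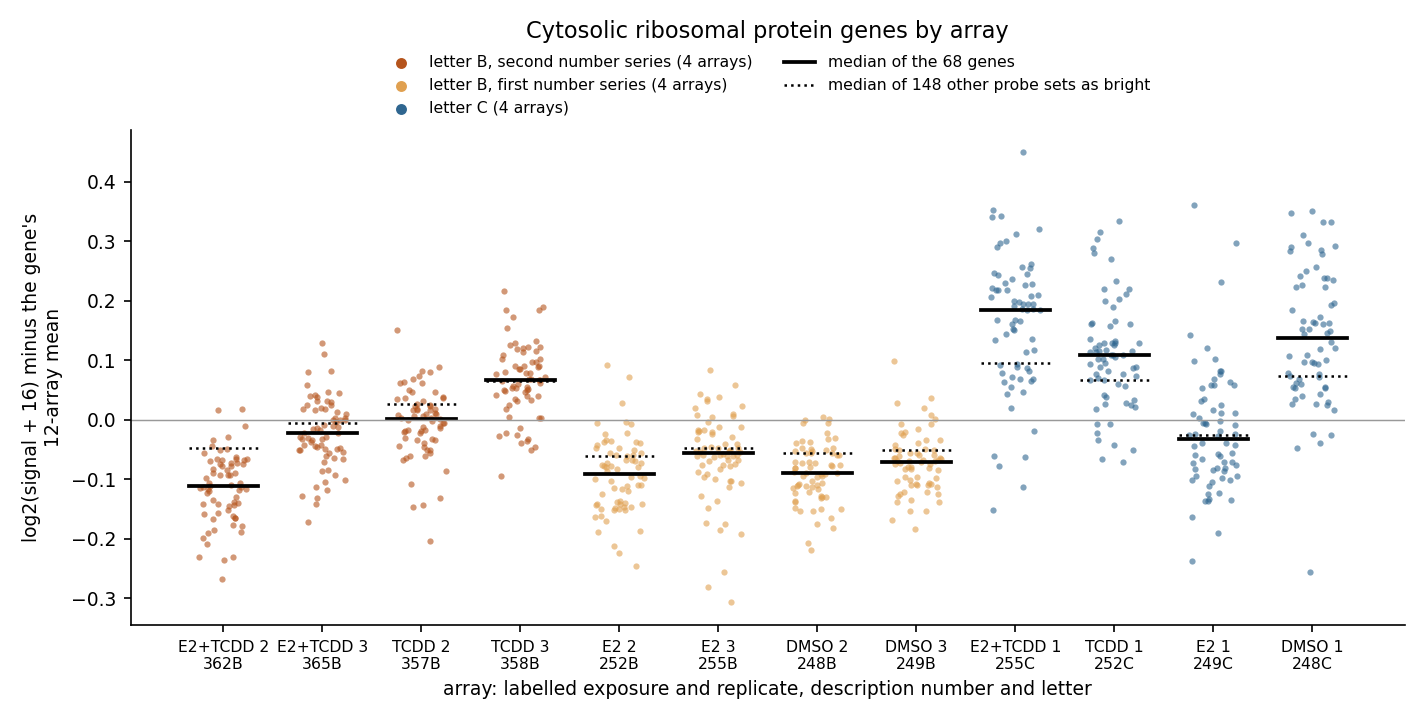
Deviation of each of the 68 ribosomal protein genes (points) from its own 12-array mean on the log2(signal + 16) scale, by array, with the median of the members (solid bar) and of 148 other probe sets as bright (dotted bar). Letter B arrays have member medians of -0.112 to 0.067, letter C arrays other than that labelled E2 1 have 0.109 to 0.186, and the dotted bars move the same way by less in most arrays. Quantile normalisation brings all 12 member medians to between -0.026 and 0.059.

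This shared movement is described by the correlation of pairs of members across the 12 arrays, whose median was 0.727, against 0.24 for the other bright probe sets. After each letter's mean was removed it was 0.673. The points share arrays, scaling and brightness, so no p-value is given. After quantile normalisation, which gives every array the same distribution of signals, the median fell to 0.093, or 0.061 with the letter means removed. That of the other bright probe sets was then -0.001. Lists of other genes were described without quantile normalisation only, to be set against 0.727. Their median was 0.211 for 59 mitochondrial ribosomal protein genes, 0.23 for 70 ribosome biogenesis genes, 0.321 for 28 translation factors and other TOP mRNAs, and 0.702 for 14 exocrine pancreas genes. With the letter means removed, to be set against 0.673, these were 0.071, 0.21, 0.138 and 0.766. With the letters kept, the members least like the rest were rpl38, whose median correlation with the other members was -0.262, rpl5a (-0.041), rps26 (0.039) and rps3a (0.079), and the member most like the rest was rps14 (0.868). Of these, rps26, rps3a and rps14 are named because of these values. With the letter means removed, rpl38, rpl5a, rps26 and rps3a were at 0.322, 0.625, 0.578 and 0.618. The lowest after rpl38 were then rpl14 (0.412), rps15 (0.441) and rpl27a (0.459).

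The upper end of the signals is partly made of the members, which were 65 of the 156 probe sets at or above the 99th percentile of mean signal. That percentile was 11623 to 12853 in letter B and 12281 to 13532 in letter C, and without the members' probe sets it was 8824 to 9526 in letter B and 9180 to 9748 in letter C. Every array had the same trimmed mean within 0.00225%. The ratio of 3′ to 5′ probe sets of gapdh, a sign of RNA or labelling quality, was 1.72 to 2.18 in letter B and 1.36 to 1.58 in letter C, without overlap. That of acta1 was 5.74 to 10.84 in letter B and 5.19 to 10.85 in letter C. Members make up much of this upper end, so quantile normalisation also takes out movement that they share, whatever its source. The values after it therefore cannot tell apart sources of the shared movement, and the part of these measures in it was not tested.

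No ribosomal protein gene passed the test between labelled groups, which follow titles that the cyp1a and cyp19a1b signals in part go against. In the fit to all 12 arrays, with the letter as a covariate, limma called 0 of 68 members between arrays labelled E2+TCDD and those labelled DMSO (Benjamini-Hochberg adjusted p, two-sided), where 0.0602% of all probe sets passed. The unadjusted p was under 0.05 in 1 member, in 1348 of all 11626 probe sets and in 18 of the 148 other bright ones. The members' median difference was 0.013 (log2), which turned to -0.019 after quantile normalisation. The 95% intervals of all 68 members lay between -0.281 and 0.26, or 0.823-fold and 1.198-fold. The smallest p belonged to rps4x, a small-subunit protein gene, with signals of 27906, 23314 and 24969 in arrays labelled E2+TCDD 1, 2 and 3, against 24966, 22571 and 22208 in those labelled DMSO 1, 2 and 3. The groups overlapped, the array labelled E2+TCDD 1 being highest of the 6, and the difference of 0.125 ± 0.053 (SE) had an adjusted p of 0.372. Next came rps15a (-0.121, adjusted p = 0.582), rpl13a (0.105), rpl5b (0.092) and rplp0 (0.093), all within the spread of their arrays. In the fit to the 6 arrays labelled E2+TCDD or DMSO alone, whose cyp1a signals fit their titles (the cyp19a1b signals of DMSO 3 and E2+TCDD 2 do not), 0 of 68 members again passed, where 1.57% of all probe sets did. There the adjusted p of rps4x was 0.281, and rpl17 (-0.078, adjusted p = 0.527) joined rpl13a, rps15a and rpl5b among the next 4. In 0 members did the 3 signals of one group lie wholly above or below those of the other, where 5.48% of all probe sets were higher in that way and 5.57% lower.

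Arrays labelled TCDD and those labelled DMSO likewise gave 0 calls among members and 0% among all probe sets, with 5 members at an unadjusted p under 0.05, as had 1114 of all 11626 probe sets and 30 of the 148 other bright ones. The median difference was 0.068, with 63 of 68 members positive, and was -0.013 after quantile normalisation. For rpl38, whose loss in mice alters skeletal patterning, signals were 18451, 20219 and 21171 in arrays labelled TCDD 1, 2 and 3, against 15245, 17939 and 18567 in those labelled DMSO 1, 2 and 3. The groups overlapped by 1 array on each side, and the difference was 0.212 ± 0.062 (SE, adjusted p = 0.277), or 1.159-fold. For rpl12, a protein at the base of the stalk that recruits translation factors, signals were 22621, 22804 and 23562 in arrays labelled TCDD, against 21158, 20671 and 20145 in those labelled DMSO. All 3 were higher, with a difference of 0.155 ± 0.057 (adjusted p = 0.386). The other members among the 5 smallest p were rps4x (0.142), rps15 (0.127) and rpl9 (0.112), and signals did not overlap in 5 members (rpl12, rpl9, rplp0, rps15 and rps29, all higher), 4.44% of all probe sets being higher in that way. By letter, the members' median was 0.118 in letter B, where 67 of 68 were positive, and -0.026 in letter C, where 19 were. The letter B arrays labelled TCDD are those of the second number series and have no cyp1a response, and the letter B arrays labelled DMSO are of the first, so exposure and number series cannot be told apart there. Intervals of all members lay between -0.193 and 0.346 (0.875-fold to 1.271-fold).

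Arrays labelled E2 and those labelled DMSO, which serve also as controls of the comparisons above, gave 0 calls among members and 0% among all probe sets. With an unadjusted p under 0.05 there was 1 member, against 770 of all 11626 probe sets and 8 of the 148 other bright ones. The median difference was -0.051, with 60 of 68 members negative, and it was -0.018 after quantile normalisation. The smallest p belonged to rps15a, a small-subunit protein gene, with signals of 14146, 13382 and 14195 in arrays labelled E2, against 18840.2, 14323 and 14074 in those labelled DMSO. The array labelled DMSO 1 stood above the other 5, and the difference of -0.166 ± 0.075 had an adjusted p of 0.745. The next 4 were rpl24 (-0.142), rpl31 (-0.123), rpl6 (-0.114) and rplp2 (-0.11). Signals did not overlap in 4 members (rpl22, rpl24, rps21 and rps26, all lower), as in 3.92% of all probe sets. The members' median was 0.003 in letter B, where 29 members were negative, and -0.165 in letter C, where 1 array stood against 1 and 64 members were negative. The letter B arrays labelled E2 had cyp1a signals of 21022.5 and 21650.5, as high as those labelled E2+TCDD. An effect of E2 alone can therefore not be read from letter B. Intervals of all members lay between -0.326 and 0.201 (0.798-fold to 1.149-fold).

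Grouping the 8 arrays with shared numbers by the exposure of their letter C title gave the same count. This grouping uses labels alone but was chosen with earlier results known. Numbers whose letter C array was labelled TCDD or E2+TCDD (252 and 255) stood against 248 and 249, 4 arrays against 4, and 0 of 68 members passed, where 2.58% of all probe sets did. An unadjusted p under 0.05 occurred in 0 members, in 1420 of all 11626 probe sets and in 17 of the 148 other bright ones. In this grouping the cyp1a signals separate the groups. The members' median was 0.041 (-0.003 after quantile normalisation), with intervals from -0.19 to 0.264, that is from 0.877-fold to 1.201-fold. Smallest in p was rpl7a, at 0.126 ± 0.065 (adjusted p = 0.466), followed by rpl12 (0.110), rps4x (0.105), rplp0 (0.105) and rpl19 (0.093). Within letter B the median was 0.003 and within letter C 0.08, with 2 arrays against 2 in each. The letter B arrays here are those labelled E2 and DMSO, so 0.003 is the same comparison as E2 against DMSO in letter B above. For the numbers with E2 (249 and 255) against 248 and 252, 0 members passed, where 0.0086% of all probe sets did. Here 1 member had an unadjusted p under 0.05, as had 400 of all 11626 probe sets and 2 of the 148 other bright ones. The median was -0.009 (0.011 after quantile normalisation), 0.027 within letter B and -0.051 within letter C. The smallest p was that of rps27.2, at -0.135 ± 0.059 (adjusted p = 0.999), followed by rps15a, rps25, rpl34 and rps15, at -0.103 to -0.077, and intervals ran from -0.26 to 0.195.

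**Figure D3:**
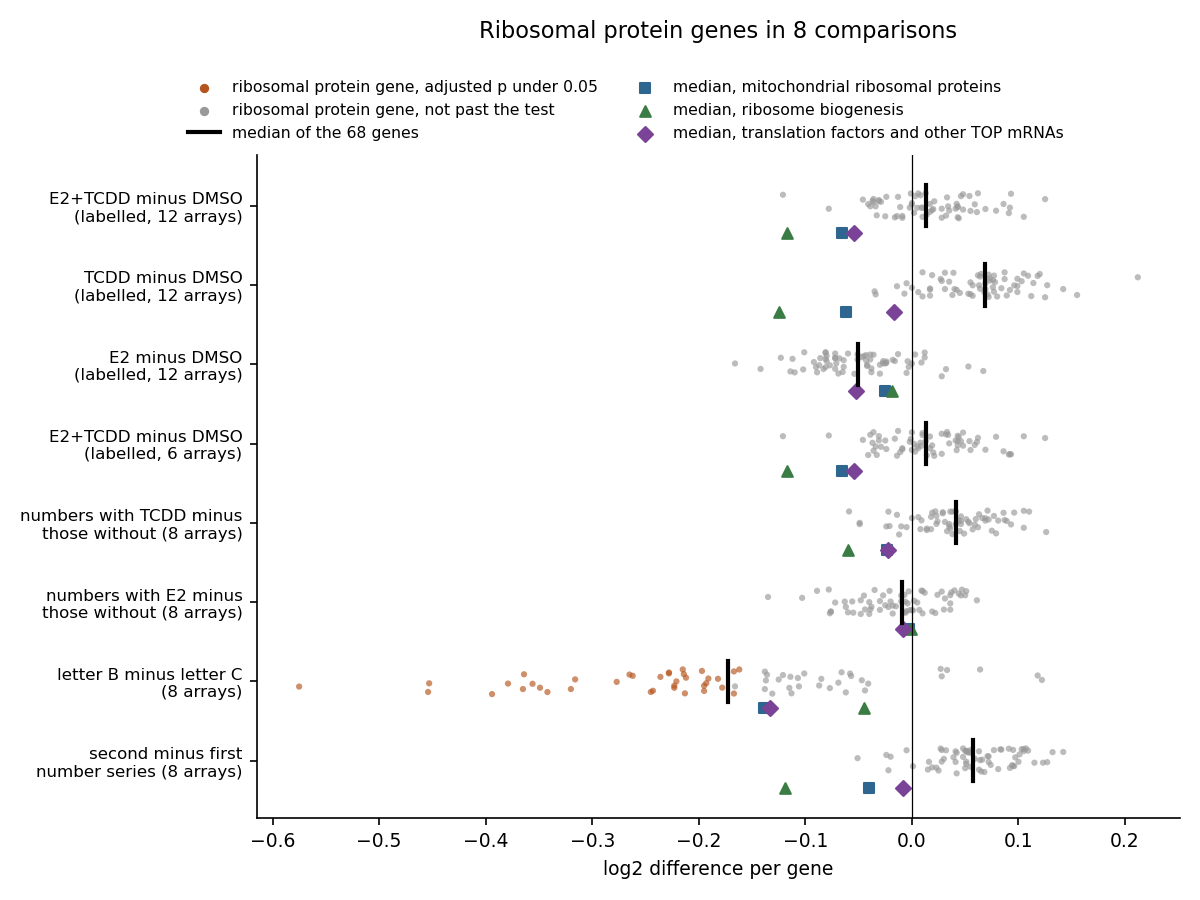
Difference of each of the 68 ribosomal protein genes (points, log2) in 8 comparisons, with the members' median (bar) and the medians of 3 other lists (symbols below). Calls (orange) occur in the comparison of letter B with letter C, 37 of 68. The members' medians in all others lie between -0.051 and 0.068, and those for E2+TCDD, TCDD, both number groupings and the number series change sign after quantile normalisation.

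Genes with set roles in ribosome control showed the same small differences between labelled groups. These groups follow the titles, several of which the cyp1a and cyp19a1b signals go against. The protein of rplp0 forms the base of the stalk, and its differences were 0.093 for E2+TCDD, 0.099 for TCDD and 0.009 for E2 against DMSO. Its partner rplp2, an acidic stalk protein, had -0.041, 0.038 and -0.11 in that order, while rplp1 was not analysed here. The S6 kinase target rps6 had 0.059, 0.072 and -0.069, and the ubiquitin fusion gene rps27a had 0.046, 0.084 and -0.003. Of the proteins that join the 5S ribosomal RNA, rpl11 had 0.009, 0.064 and -0.081. Differences of rps19, the gene most often mutated in human Diamond-Blackfan anaemia, were 0.069, 0.073 and -0.027. None of these values passed the test.

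The letters, unlike the groups by labelled exposure or by number, separated many members. Within the 4 shared numbers, letter B was lower than letter C in 37 of 68 ribosomal protein genes past the test and higher in 0, where 29.6% of all probe sets passed, 14.9% lower and 14.7% higher. The members' median was -0.172, against 0.001 over all probe sets tested and -0.121 over the other bright probe sets, of which 45 of 148 were lower and 10 higher. After quantile normalisation the median was -0.039, with 14 members lower and 6 higher. Shares of all probe sets called after it, or with arrays left out, are not given here, so those counts describe the members only. Letter B holds arrays with several exposures and letter C the same numbers, so the exposures are balanced if a number stands for the same exposure in both letters, and the cyp1a and cyp19a1b signals were alike in the arrays of a number. Leaving out either array of number 255 (labelled E2 3 or E2+TCDD 1) gave 18 calls, of number 248 (DMSO 2 or DMSO 1) 21 calls, and of number 252 (E2 2 or TCDD 1) 23 calls, because the partner then has no pair.

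Both subunits took part: 23 of 43 large-subunit genes and 14 of 25 small-subunit genes were lower in letter B. The gene rpl27a had signals of 9015, 9287, 8518 and 8165 in letter B (numbers 248, 249, 252 and 255), against 12734, 12981, 12583 and 13806 in letter C. The letters did not overlap, and the difference was -0.575 ± 0.062 (SE, n = 4 arrays each, adjusted p = 4.29e-05), or 0.671-fold. For rpl14 (Entrez gene 323365), a large-subunit protein gene, letter B had 12148, 12154, 11511 and 10973, against 15971, 16117, 15809 and 16140.3 in letter C. In every number the letter B array was lower, by 0.394 to 0.556, and the fitted difference was -0.454 (adjusted p = 0.000124). For rpl21 (Entrez gene 336568), another large-subunit protein gene, letter B had 11194, 11419.9, 11346 and 11109, against 15548, 14910.3, 15424 and 15856 in letter C. Its difference was -0.453 (adjusted p = 0.000123), with each letter's arrays close together.

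The next 5 were rpl31 and rpl26, both at the exit of the peptide tunnel, rps18, which contacts the large subunit from the head of the small one, rpl29 and rpl11. Their differences were -0.394, -0.379, -0.365, -0.364 and -0.356, with adjusted p of 0.00049, 0.000381, 0.000828, 0.000837 and 0.000648. For rpl11, which binds Mdm2 in mammals together with rpl5, letter B arrays had 15774, 15739, 15762 and 15792, against 21715, 18294, 19975 and 20927 in letter C. Among the letter C arrays that labelled E2 1 (number 249) was lowest. Signals did not overlap between the letters in 31 members, all lower in letter B, where 13.9% of all probe sets were lower in that way.

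Among the genes with set roles, rps6 was at 16424 ± 197 in letter B and 19218 ± 1466 in letter C (SD, n = 4 each), a difference of -0.223 (adjusted p = 0.0122). The gene rps27a was at 20187 ± 834 in letter B and 23545 ± 1418 in letter C (-0.221, adjusted p = 0.00718), and rps19 at 15635 ± 301 and 17585 ± 1328 (-0.167, adjusted p = 0.0376). Calls for rps6, rps27a and rps19 were lost after quantile normalisation, at -0.073, -0.084 and -0.025. The stalk genes had unlike values: rplp0 had a difference of -0.062 (adjusted p = 0.425), rplp2 one of -0.166 (adjusted p = 0.0581), and rplp2b, named because of its value, one of -0.32 (adjusted p = 0.00281). For rpl10, a protein that joins the large subunit late in its assembly, the difference was -0.138 (adjusted p = 0.0659), and for rpl22, an RNA-binding large-subunit protein, it was -0.069 (adjusted p = 0.399). The difference of rps3 was -0.041 (adjusted p = 0.6), within the spread of its arrays.

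Duplicated genes gave unlike and like pairs. Of the 2 genes for the 5S-binding protein, rpl5b had 16183, 15977, 15982 and 16136 in letter B, against 18399, 17556, 18151 and 21097 in letter C, and its difference was -0.223 (adjusted p = 0.0116). In rpl5a, letter B had 13721, 13988, 14956 and 13705, against 13773, 12969, 13543 and 13627 in letter C, with a difference of 0.064 (adjusted p = 0.418), so its letters overlapped. After quantile normalisation rpl5b was no longer called (-0.072, adjusted p = 0.3) and rpl5a was called higher (0.187, adjusted p = 0.0116). The difference between the paralogs was not tested. By contrast rps27.1 and rps27.2, which encode a small-subunit protein with a zinc finger, were both lower in letter B, at -0.316 (adjusted p = 0.00127) and -0.342 (adjusted p = 0.000863). How far probes of such paralogs cross-hybridise is not known from the files.

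Second probe sets were available for 3 members. For rps27.1, a second probe set gave -0.303 (adjusted p = 0.00797) and the remaining one -0.063 (adjusted p = 0.469). For rpl3 the brightest probe set had -0.087 (adjusted p = 0.249) and the other one -0.188 (adjusted p = 0.0185). The other probe set of rpl21 was too dim to be tested. No 2 probe sets of a member were called in opposite directions.

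**Figure D4:**
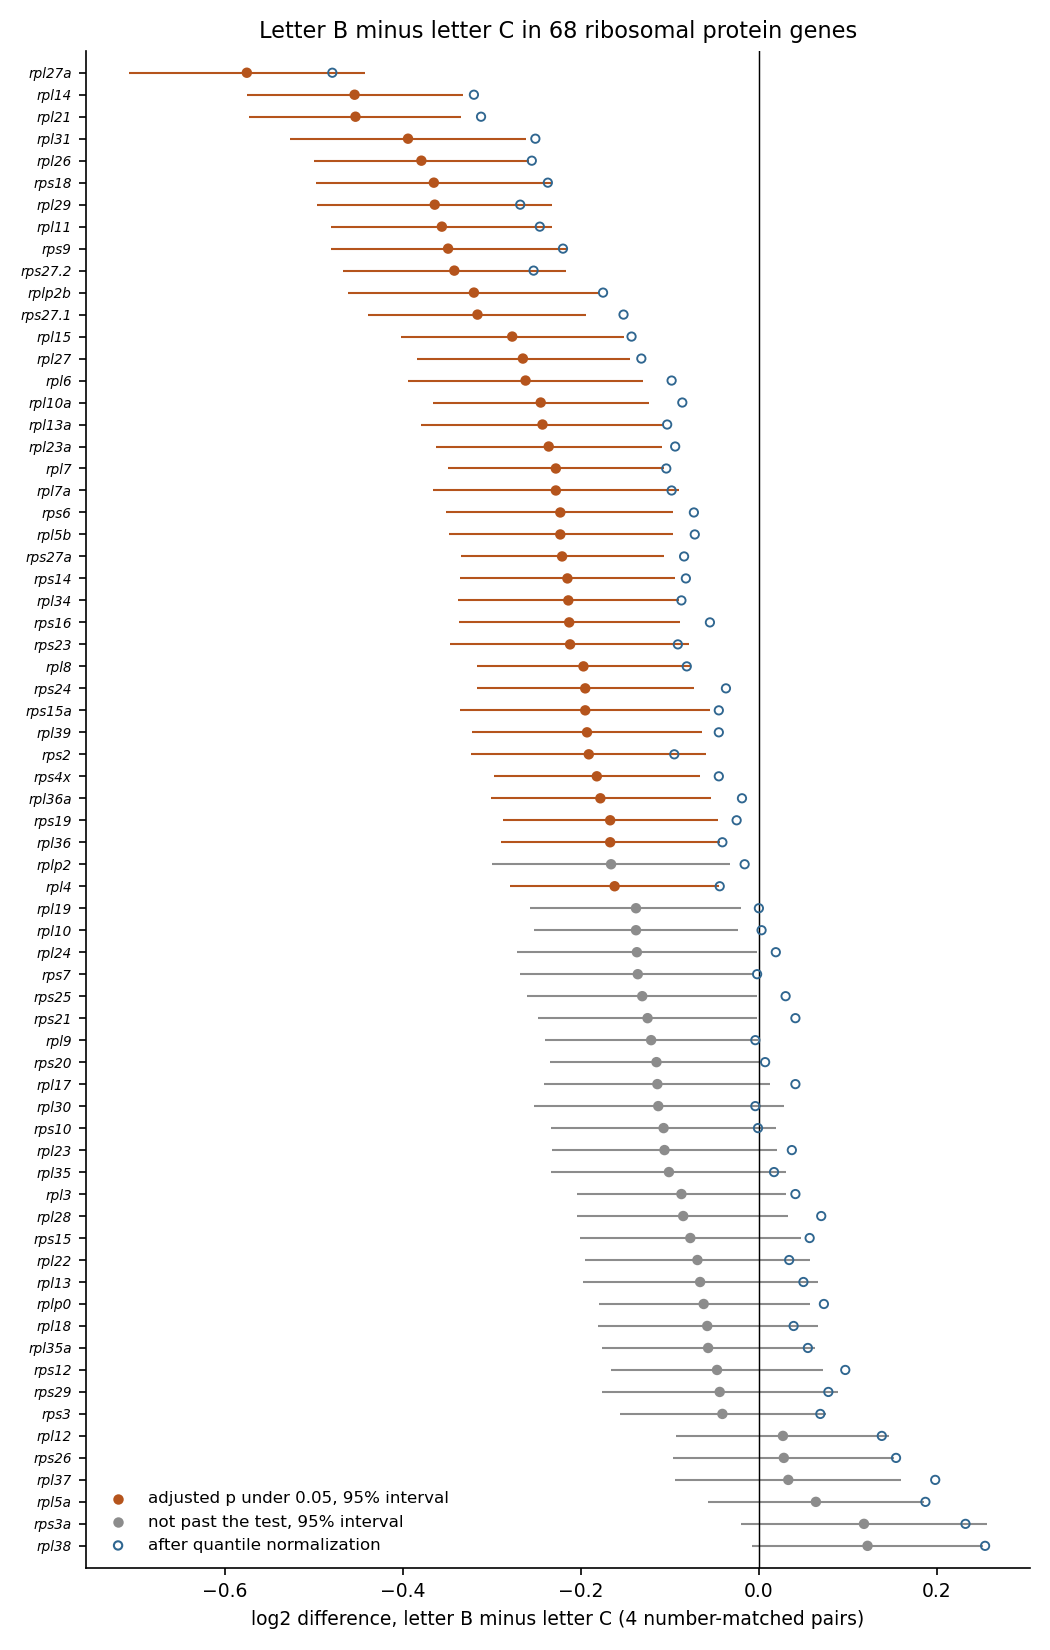
Difference of each of the 68 ribosomal protein genes between letter B and letter C (log2, 4 arrays each, paired by number), ordered by size, with 95% intervals (filled points, orange where adjusted p is under 0.05) and the value after quantile normalisation (open points). Of the filled points 62 are below 0 and 37 passed, all lower in letter B, where 14.9% of all probe sets passed as lower. After quantile normalisation 14 passed as lower and 6 as higher, with no share of all probe sets given for it.

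Quantile normalisation changed the calls of members unequally. After it, 14 of the 37 were still called lower and 23 were no longer called, while 6 genes that had not been called became higher: rpl38 (0.122 before, 0.254 after), rps3a (0.118, 0.232), rpl37 (0.033, 0.198), rpl5a (0.064, 0.187), rps26 (0.028, 0.154) and rpl12 (0.027, 0.138). For rpl38, letter B arrays had 17939, 18567, 17751 and 18972, against 15245, 17324, 18451 and 16395 in letter C, so the letters overlapped through number 252. Across the 15 alternatives, 12 of the 37 genes were called lower every time: rpl11, rpl14, rpl21, rpl26, rpl27a, rpl29, rpl31, rplp2b, rps9, rps18, rps27.1 and rps27.2. All 37 kept the negative sign throughout. Leaving out either array of a number removes the same pair, so the 15 alternatives are not all separate checks. No share of all probe sets is given for the counts of this paragraph, so they describe the members only.

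Matched by number, 39 members were lower in letter B in all 4 pairs, 21 in 3, 6 in 2 and 2 in 1. The pair medians were -0.227 for number 248, -0.048 for 249, -0.192 for 252 and -0.218 for 255. Number 249, whose letter C array is the one labelled E2 1, stood apart. Across members, the difference went with probe-set brightness only loosely, with a Spearman rho of 0.304 over 68 genes of shared arrays. The dimmer 34 had a median of -0.223 and the brighter 34 one of -0.118.

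Between the number series of letter B, 4 arrays of the second (labelled E2+TCDD or TCDD) stood against 4 of the first (labelled E2 or DMSO). Of 68 members 0 passed, where 0.447% of all probe sets did, and 13 had an unadjusted p under 0.05, as had 1711 of all 11626 probe sets and 49 of the 148 other bright ones. The median was 0.057, with 63 of 68 positive, and -0.005 after quantile normalisation, while the other bright probe sets had 0.065. Smallest in p was rpl13a, a large-subunit protein gene, at 17767 ± 603 in the second series and 16101 ± 631 in the first (SD, n = 4 each), a difference of 0.142 (adjusted p = 0.148). After it came rpl27 (0.132), rps15 (0.115), rps18 (0.123) and rps4x (0.105). Signals did not overlap in 6 members, all higher in the second series (rpl11, rpl27, rpl30, rps15, rps24 and rps26), where 4.54% of all probe sets were higher in that way. Intervals lay between -0.167 and 0.265 (0.891-fold to 1.202-fold).

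Arrays within each number series of letter B were also compared by title, a choice made with the values in view. Between the arrays labelled E2+TCDD 2 and 3 and those labelled TCDD 2 and 3, all 68 ribosomal protein genes had a negative difference, from -0.173 to -0.017 with a median of -0.094, and 0 passed limma's test, where 0.791% of all probe sets did. Unadjusted p was under 0.05 in 3 members, with no count over all probe sets given here to set beside it. The median difference over all probe sets was -0.013. The other bright probe sets moved the same way as the members. Their median deviations were -0.048 and -0.006 in the arrays labelled E2+TCDD 2 and 3, against 0.027 and 0.065 in TCDD 2 and 3. Whether the shift is particular to ribosomal protein genes was not tested. The cyp1a signal was 20170.0 and 21509.5 in the arrays labelled E2+TCDD 2 and 3, against 323.8 and 263.9 in those labelled TCDD 2 and 3. After quantile normalisation 50 members were negative and the members' median was -0.019. In the first number series, between the letter B arrays labelled E2 (cyp1a 21022.5 and 21650.5) and those labelled DMSO (329.4 and 413.4), the median was 0.003, with 39 members positive and 29 negative, and 0 passed, where 1.56% of all probe sets did. The same arrays gave the letter B medians for E2 and for numbers with TCDD above. The difference between these series was not tested.

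Genes that work beside the ribosomal proteins gave more mixed counts. Between letter B and letter C, 14.9% of all probe sets were lower and 14.7% higher. The 59 genes of the mitochondrial ribosome, a separate machine, had a median of -0.139 there, with 20 lower and 3 higher. Lower were mrpl39 (-0.554), mrps35 (-0.513) and mrpl2 (-0.511), and higher were mrpl1 (0.605), mrps2 (0.573) and mrpl19 (0.446). No member of that list passed in any exposure comparison or between the number series. Of 70 ribosome biogenesis genes, which make and process ribosomal RNA and assemble subunits, 6 were lower in letter B and 6 higher. Both shares were below those of all probe sets. Among the genes called were utp15 (-0.859), a processing factor for the small subunit, and ubtf (0.44), a factor for RNA polymerase I. The biogenesis list's medians were -0.117 for E2+TCDD and -0.125 for TCDD against DMSO in the 12 arrays, where 0 genes passed, and -0.119 between the number series, where 0 passed too. In those 3 comparisons 12, 14 and 12 of its 70 genes were positive, against 44, 63 and 63 of the 68 ribosomal protein genes and 100, 108 and 121 of the 148 other bright probe sets. Of all 11626 probe sets, 5802, 5926 and 6185 were positive. After quantile normalisation the members' medians in these comparisons were -0.019, -0.013 and -0.005, and the biogenesis list was not described after it.

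Of 28 translation factors and other TOP mRNAs, 11 were lower in letter B and 1 was higher, against 14.9% and 14.7% of all probe sets. The largest falls were those of nap1l1 (-0.792), a nucleosome assembly gene with a TOP mRNA, and eif4a1a (-0.653), an initiation helicase, and the gene higher was eef2l2 (0.442). The elongation factor eef1a1l1 was lower as well (-0.172). Between the number series nap1l1 was higher in the second (0.323, adjusted p = 0.0408), the only call of these 28 genes there, where 0.447% of all probe sets passed. Of 15 genes of the TOR and p53 pathways, mdm2 (-0.533), rheb (-0.387) and larp1 (-0.319) were lower in letter B and mtor was higher (0.524). Of all probe sets 29.6% passed between the letters, near the share in this list. In this list tsc1a, an inhibitor of TOR signalling, was higher in arrays labelled E2+TCDD than in those labelled DMSO in the 6 arrays (0.453, adjusted p = 0.0449). It was the list's only call there, where 1.57% of all probe sets passed, and 8 of the 15 genes were negative. In the fit to all 12 arrays 0 of the 15 genes passed (smallest adjusted p 0.143). The translation repressor gene eif4ebp3l was lower in numbers with TCDD than in those without (-0.318, adjusted p = 0.0409). It too was the list's only call there, where 2.58% of all probe sets passed. Of 2 measured ribosomal protein genes that the naming rule does not cover, rpsa, the laminin receptor homolog of the small subunit, was lower in letter B (-0.174, adjusted p = 0.0299).

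Some markers of tissues also passed the test. Between letters, where 14.9% of all probe sets were lower and 14.7% higher, 5 of 14 exocrine pancreas genes tested were lower in B and 0 higher, 3 of 15 intestine genes lower and 2 higher, 4 of 17 fast skeletal muscle genes lower and 1 higher, 1 of 9 erythroid genes lower and 2 higher, and 5 of 22 cell cycle genes lower and 0 higher. The median deviation of the pancreas list was -0.098 to 0.394 over the 4 letter B arrays of this comparison and 0.04 to 0.544 over the letter C arrays. Over all 8 letter B arrays it was -0.719 to 0.394. That of the cell cycle list was -0.112 to 0.023 over all 8 letter B arrays and 0.021 to 0.124 over the letter C arrays. In numbers with TCDD, where 2.58% of all probe sets passed, 6 of 14 pancreas genes were lower, led by amy2a (-0.808), and all 14 were negative. Of 15 intestine genes, alpi.2 (-1.202) and fabp6 (-0.697) were lower, but 9 of the 15 were positive and the list's median was 0.021. Of 9 erythroid genes, nt5c2l1 was higher (0.991), with 5 genes positive and 4 negative. Between the 6 arrays labelled E2+TCDD or DMSO, 1.57% of all probe sets passed. There amy2a (-0.8) and cpa5 (-0.348) were lower in E2+TCDD, and 13 of 14 pancreas genes were negative. Also lower were alpi.2 (-1.407), fabp6 (-0.995) and elf3 (-0.82) of the intestine list, in which 10 of 15 genes were negative. Higher was nt5c2l1 (1.024) of the erythroid list, in which 4 of 9 genes were positive. The gene alpi.2 passed in the fit to all 12 arrays too, where 0.0602% of all probe sets did. Between the number series, where 0.447% of all probe sets passed, chia.1 (-1.085), chia.2 (-1.052) and elf3 (-0.782) were lower in the second. They belong to the intestine list, in which 13 of 15 genes were negative there. In the comparisons of this paragraph other than that between letters, 0 ribosomal protein genes passed. No marker of these lists was at 0, since every signal on the arrays is above 0, and the part of tissue proportions in the members' differences was not tested.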

How the data were processed

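Per the submitters' processing notes, the authors made MAS5 values with Affymetrix Expression Console (versions not given in the sources used here). The deposited unit is a linear signal intensity, with the same 2% trimmed mean in every array. It was analysed as log2(signal + 16), without the 115 control probe sets among 15617. Gene symbols came from the platform table (10795 probe sets with 1 symbol, 135 with several, 4572 with none), and all 68 members matched a RefSeq gene table by Entrez ID, with 0 symbols changed. A filter at the 25th percentile of mean log2 left 11626 probe sets.

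Tests were two-sided, in limma 3.58.1 under R 4.3.3 (lmFit, eBayes with a variance trend), and a call needed an adjusted p (Benjamini-Hochberg, across the 11626) under 0.05. The letter was a covariate for labelled groups, and number and letter were for numbers. Comparisons with DMSO share its arrays. The script was checked on simulated data. Members, lists and tests were chosen with earlier results of these data known. Named genes were, per comparison, the 8 largest rises and falls past the test or otherwise the 5 with the smallest p, a fixed set of 12 control genes, duplicated pairs, the 6 largest and 4 smallest SDs, and members whose probe sets disagree. Members with no overlap between groups, and those said to be named because of a value, fall outside that rule. Alternatives were pseudocounts of 1 and 64, other filters, normalisation, no variance trend, no letter term, a replicate block, only the groups compared, all probe sets of the members, and leaving out each array. Intensities hold no counts, so no depth is stated. Arrays with the same replicate number in their titles correlated over 0.1 in all pairs before the letter term. After it 0 pairs did, at -0.622 to -0.065 for replicate 1 and -0.232 to 0.02 for replicates 2 and 3. Removing a letter's mean by itself pushes correlations within that letter down, so these later values cannot show whether replicate numbers pair the arrays. Replicate 1 always has letter C, so pairing by replicate and the letter cannot be told apart.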

Additional observations from a re-analysis of the deposited data

Results flagged for a closer look

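Among 80 sets of arrays examined for a gap (the members that the naming rule gives, and the median of all members, within each letter), 1 had a sample far from the others, where chance gives about 1 in 20. It was rps27a in letter C, at 21451 in the array labelled E2 1, against 24595, 24089 and 24045 in those labelled E2+TCDD 1, TCDD 1 and DMSO 1. The gap to the nearest array, divided by the whole range of log2 values, was 0.835.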

How the results depend on the processing

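Ribosomal protein genes stayed at 0 calls in the 7 comparisons by exposure, number or number series under every alternative run. Medians there depended on the normalisation: quantile normalisation, which also takes out shifts that the members share, changed the sign of 6 of the 7, as given above. In the comparison of letter B with letter C, 37 calls became 20 after quantile normalisation (6 higher, 14 lower) and 12 without the variance trend. Leaving out 1 array gave 18 to 48 calls, the highest without the array labelled E2 1 or its partner, DMSO 3. Shares of all probe sets under these alternatives are not given here. With a replicate block in place of the letter, 0 members were called and the medians were 0.013, 0.068, -0.051 and 0.013, as without it, for E2+TCDD, TCDD and E2 in 12 arrays and E2+TCDD in 6. Replicate 1 is the letter C array of every group, so this block holds the letter. The count over all probe sets in the 6-array fit, 183, was 46 without the variance trend and 23 without the letter term. Causes were not tested. With 3 or 4 arrays a group, differences smaller than the intervals given for each comparison could not be measured, and probe-set signals this bright were not checked for saturation.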
